A study of Mus musculus with 10 samples.

Results

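Clusters 3 and 4 are groups of vasopressin (*Avp*) neurons among the manually picked cells of the mouse paraventricular hypothalamus (PVH). Members were taken by the authors' cluster number. Cluster 3 held 36 cells and cluster 4 held 22, so the pair made up 58 of 706 cells in the table and 58 of the 664 cells in PVH clusters. The cells came from male offspring, older than 7 weeks, of *Agrp-IRES-Cre* mice crossed with Ai9, a line that carries a Cre-dependent tdTomato reporter. All animals had this genotype and none received a treatment in the labels. The labels describe the picked cells as tdTomato neurons, whereas in the study's methods the reporter marks AGRP axons that outline the PVH. Cells were picked by hand from protease-treated slices held with blockers of neuronal activity, and libraries were made with Smart-SCRB, which tags each transcript molecule with a unique molecular identifier (UMI) and each well with a barcode.

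The question was which genes separate the 2 groups within the same plate. UMIs were summed over the cells of each cluster on each plate, and plates AL5, AL6, JM6 and JM8, which held at least 3 cells of each cluster, were paired. Cluster 3 gave 14, 4, 6 and 3 cells on these plates and cluster 4 gave 3, 5, 4 and 4, which together are 43 of the 58 cells. Plates JM5 (2 and 4 cells) and JM7 (6 and 2 cells) were outside the test and are given beside it. Plate Q7 held the remaining cell of cluster 3. Animals are not named per plate in the labels, so the p-values measure the spread between plates. The clusters were drawn by the authors from the same transcripts, so a gene that differs between them is not independent evidence that the groups exist.

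Depth overlapped between the 2 groups. Cells of cluster 3 had a median of 98388 UMIs (54031 to 578824) and 5456 genes detected, and cells of cluster 4 had 87193 UMIs (50646 to 224820) and 5241 genes. The 8 sums held between 269255 and 1893974 UMIs. Across the 4 plates the within-plate difference, cluster 4 minus cluster 3, in the median cell was −0.039 on the log2 scale for total UMIs (SD 0.323), −61.8 for genes detected (SD 374) and −0.454 percentage points for the share of UMIs in the ERCC spike-in RNAs (SD 1.72). With the mean cell in place of the median the difference in genes detected was −253 (SD 202), lower in cluster 4 on 4 of 4 plates (exact within-plate permutation test, two-sided, p = 0.13, the smallest possible, adjusted p = 0.25 over 4 measures). The part of depth in the gene differences was not tested beyond a fit to thinned cells. In that fit 0 genes passed, as in the main test below, so the count says nothing of depth. The mitochondrial share of UMIs was higher in cluster 4 on 4 of 4 plates, at 2.57%, 2.66%, 3.33% and 2.54% against 2.13%, 2.43%, 2.31% and 2.27% on AL5, AL6, JM6 and JM8. The difference was 0.488 percentage points (SD 0.367, exact within-plate permutation test, two-sided, p = 0.13, adjusted p = 0.5 over 4 measures), and this is the smallest p that 4 pairs allow. Well barcodes were reused across plates, and 4 barcodes were shared by cells of these clusters on plates with the same barcode set.

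Vasopressin neurons of the PVH make the hormone that controls water balance and vascular tone. Magnocellular neurons release it into the blood from the posterior pituitary, and parvocellular neurons release it within the brain and at the median eminence. The peptide is cut from a precursor in dense-core vesicles that often hold a second peptide, such as dynorphin or galanin. Tyrosine hydroxylase (*Th*) makes L-DOPA from tyrosine and is rate-limiting for dopamine, but a cell also needs aromatic amino acid decarboxylase to make the amine.

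The level of *Avp* matched the name given to the pair. This is no independent check, since the clusters were drawn from these transcripts. *Avp* was detected in 36 of 36 and 22 of 22 cells, and the lowest cell stood at 10390 CPM, the UMIs of a gene scaled by the total UMIs of the cell or sum. *Avp* was also detected in 25 of 25 cells of cluster 6, a GABAergic cluster outside the PVH, but at 73.7 ± 41.5 CPM (SD, n = 5 plates), so detection alone says little for this gene and its level carries the label. Cluster 1, an oxytocin cluster, stood at 2253 ± 4692 CPM of *Avp* (SD, n = 10 plates). Its highest plate, at 15085 CPM, lay above the lowest cell of the pair, which held 25367 CPM of *Oxt*. *Sim1*, the transcription factor of the PVH lineage, was detected in 30 of 36 cells of cluster 3 (83.3%, exact Clopper-Pearson 95% interval 67.2 to 93.6%) and 17 of 22 of cluster 4 (77.3%, 54.6 to 92.2%). *Slc17a6*, the vesicular glutamate transporter, had the same counts of cells. The GABA transporter *Slc32a1* was found in 0 of 36 and 0 of 22 cells, and the limit set by 3 counts is 8.33% and 13.6%. *Gad2*, *Npy1r*, *Reln* and *Ntng1*, which the study used to split other clusters, were each detected in at most 2 cells of cluster 3 and at most 1 of cluster 4. These intervals and limits cover counting error only.

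No gene passed the test over all genes. With edgeR's quasi-likelihood test and plate as a block, 0 of 6033 genes were past an adjusted p of 0.05 (0% of those tested), and the smallest adjusted p was 0.498. At an unadjusted p under 0.05, 91 genes were higher in cluster 4 (1.51%) and 107 were lower (1.77%). The median log2 fold change over all tested genes was −0.05. The levels of the 4 plates did not overlap between the clusters for 76 genes higher in cluster 4 (1.26%) and for 137 lower (2.27%). Of all tested genes 5.52% were higher in cluster 4 on 4 of 4 plates and 8.27% were lower. DESeq2 on the same sums called 29 genes (0.481%), 10 higher and 19 lower, each in the same direction on 4 of 4 plates. On simulated sums with 200 genes changed 4- to 16-fold and no plate effect, DESeq2 made 23 to 27 false calls and edgeR 1 to 3. The false calls of DESeq2 came beside 127 to 187 correct ones, so their count does not carry over to the 29 calls here. Of the 200 changed genes edgeR recovered 96 at 4-fold, 169 at 8-fold and 156 at 16-fold. A gene that edgeR did not call may thus still differ. The DESeq2 adjusted p-values are given beside those of edgeR and are not taken as calls of single genes. Genes named below are therefore described by their levels, with the count of plates and the adjusted p by tool. The plot of fold changes shows where they lie among all genes tested.

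**Figure D1:**
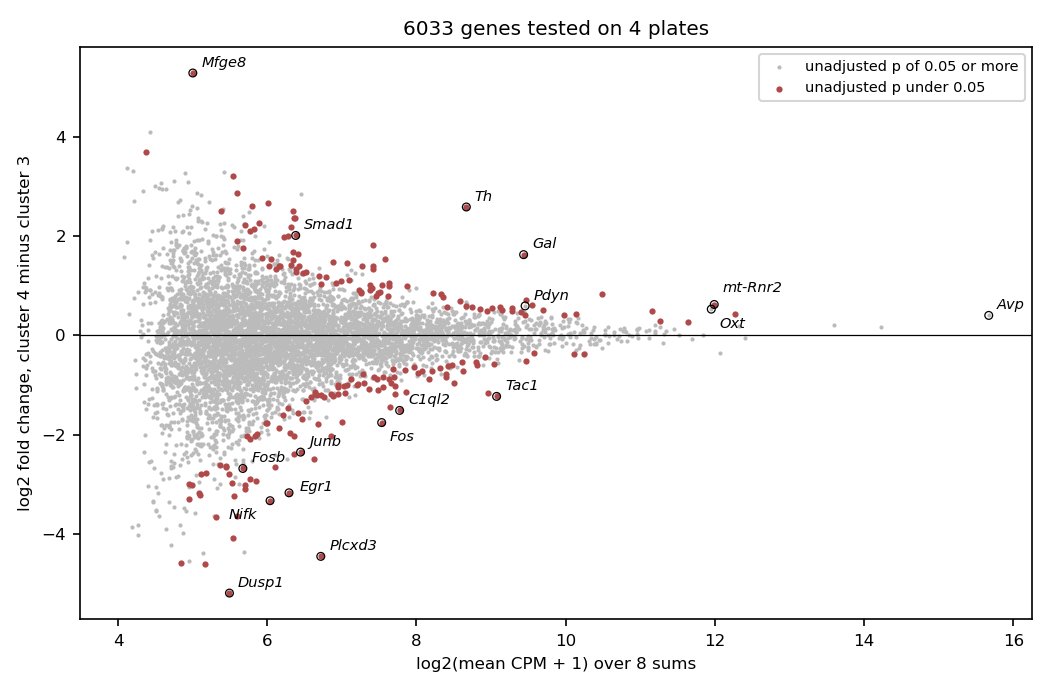
Log2 fold change of each tested gene, cluster 4 minus cluster 3 (vertical axis), against the log2 of its mean CPM plus 1 over 8 sums (horizontal axis), with the genes discussed in the text circled. *Th*, at a log2 fold change of 2.58, lies apart from genes of the same level, and *Dusp1*, at −5.19, is the lowest point.

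*Th* (chr7:142892752-142931128, minus strand, GRCm38) had the smallest p-value of all genes. It stood at 133, 27.4, 123 and 224 CPM in cluster 3 and at 710, 409, 1170 and 451 CPM in cluster 4 on AL5, AL6, JM6 and JM8. Every plate was higher in cluster 4, and the lowest plate of cluster 4 lay above the highest of cluster 3. The log2 fold change was 2.58 (standard error, SE, 0.41; edgeR unadjusted p = 8.25e-05, adjusted p = 0.498). DESeq2 gave 2.62 (SE 0.37, adjusted p = 7.03e-09). On the plates left out of the test *Th* stood at 0 and 24.9 CPM in cluster 3 and at 776 and 764 CPM in cluster 4 on JM5 and JM7. With these plates added to the fit the log2 fold change was 3.36 (SE 0.53, edgeR adjusted p = 0.0476). Without them, and with cells thinned to equal UMIs, it was 2.44 (SE 0.38, edgeR adjusted p = 0.0552).

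In single cells both the detection and the level of *Th* were higher in cluster 4. It was detected in 18 of 36 cells of cluster 3 (50.0%, 32.9 to 67.1%) and 18 of 22 of cluster 4 (81.8%, 59.7 to 94.8%), and in 10 of 25 GABAergic cells of cluster 6 (40.0%, median 150672 UMIs a cell). The median cell held 8.61 CPM in cluster 3 and 275 CPM in cluster 4, and the highest cells held 570 and 3115 CPM. Above 500 CPM there was 1 cell of 36 in cluster 3 and 10 of 22 in cluster 4. The level of cluster 4 on JM6 came mostly from the cell of 3115 CPM, beside cells of 0, 53.4 and 188 CPM. That on JM5 came mostly from a cell of 2936 CPM, beside cells of 0, 12.2 and 22.2 CPM. On AL5, AL6, JM7 and JM8 more than 1 cell of cluster 4 held over 500 CPM. The plot of single cells shows that 4 cells of cluster 4 had no *Th* UMI and that the *Th* cells of cluster 3 reached the lower part of the range of cluster 4.

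**Figure D2:**
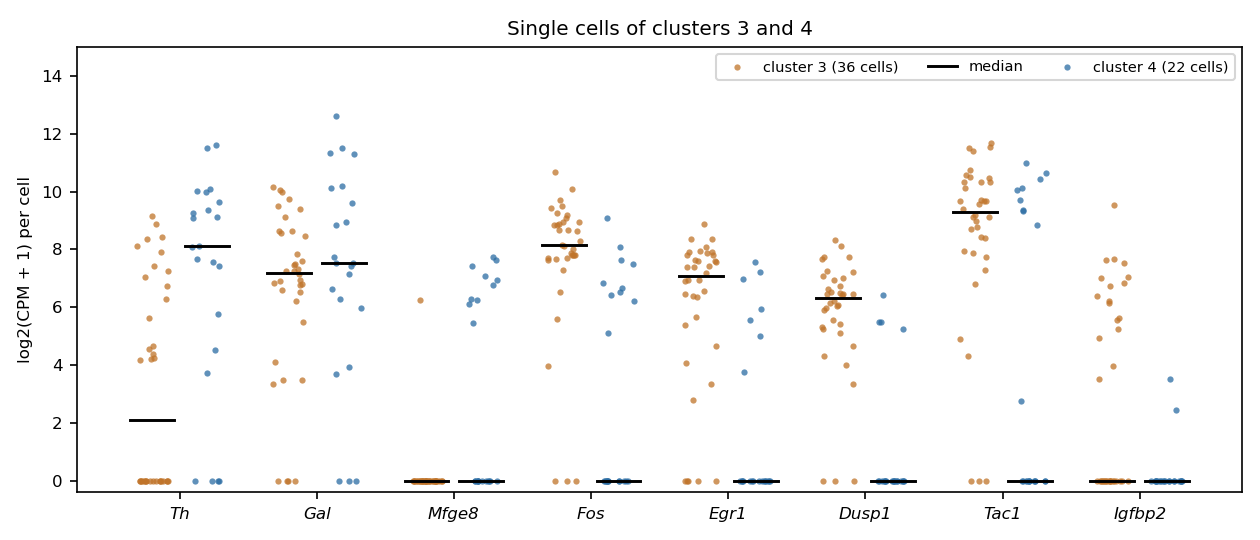
Log2 of CPM plus 1 in each cell of cluster 3 (36 cells) and cluster 4 (22 cells) for 8 genes, with bars at the median and cells without a UMI at 0. The medians of *Fos*, *Egr1*, *Dusp1* and *Tac1* lie at 0 in cluster 4 and above it in cluster 3, whereas the median of *Th* is higher in cluster 4.

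No other gene of catecholamine synthesis and transport had an unadjusted p under 0.05. Of 17 genes on the list 9 had a UMI in the sums and 6 were tested. Of the 6, 3 had positive and 3 negative log2 fold changes, and their median was 0.17. *Ddc*, the decarboxylase that turns L-DOPA into dopamine, was detected in 0 of 58 cells, for which 3 counts set a limit of 5.17%, although 104 of the 706 cells of the series had a *Ddc* UMI. *Gch1*, which starts the synthesis of the *Th* cofactor tetrahydrobiopterin, was also at 0 of 58 against 52 of 706. In cluster 2, the other vasopressin cluster, *Ddc* and *Gch1* were each in 0 of 53 cells. In cluster 1, an oxytocin cluster, they were in 5 and 11 of 221 cells, so their lack was not particular to the pair. The vesicular transporter *Slc18a2* was found in 1 of 58 cells and *Dbh*, which makes noradrenaline, in 0. Both were rare in the whole series, at 26 and 5 of 706 cells. Genes of later cofactor synthesis and recycling were present in both clusters. *Pcbd1* stood at 475 ± 56.7 CPM in cluster 3 and 638 ± 171 in cluster 4 (SD, n = 4 plates), and *Qdpr* at 314 ± 71.4 and 285 ± 46.1 CPM. *Pcbd1* was higher in cluster 4 on 3 of 4 plates and on JM5 and JM7. *Spr*, which completes the synthesis of tetrahydrobiopterin, stood at 53.9, 10.3, 20.6 and 9.33 CPM in cluster 3 and at 58.7, 51.2, 40.9 and 21.3 CPM in cluster 4, higher on 4 of 4 plates. It was also higher on JM5 (0 against 47.6 CPM) and JM7 (24.9 against 31.1 CPM). Its log2 fold change was 1.14 (SE 0.97), and all 3 genes failed the test (edgeR adjusted p = 0.998 for each).

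The bases upstream of *Th* are shown because they hold a cyclic AMP response element, a motif that the same search found in *Dusp1*, which was lower in cluster 4. The sequences are from RefSeq (GRCm38.p6). Capitals mark TGACG and its reverse complement, which overlap to form the palindrome TGACGTCA where both occur together. The window of *Th*, chr7:142899996-142900245 on the minus strand, covers 250 bases before the start of the RefSeq record, and the palindrome begins 45 bases before that start. The GENCODE interval given above includes transcripts that start further upstream, so the window lies inside it.
Th: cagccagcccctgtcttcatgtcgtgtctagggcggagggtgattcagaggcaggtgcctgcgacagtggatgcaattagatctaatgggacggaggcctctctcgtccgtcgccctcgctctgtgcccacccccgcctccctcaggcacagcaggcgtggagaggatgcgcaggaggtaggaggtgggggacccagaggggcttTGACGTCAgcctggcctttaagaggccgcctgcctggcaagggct
TGACGTCA occurred in 508 of 32851 upstream windows of this length (1.55%), and TGACG or its reverse complement in 5836 (17.8%). These matches are letters in a window and were not tested for use in these cells.

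*Igfbp2* (chr1:72824503-72852474, plus strand), which encodes a secreted carrier protein of insulin-like growth factors, was the reverse case. It stood at 37.0, 27.4, 53.4 and 23.3 CPM in cluster 3 on AL5, AL6, JM6 and JM8, and at 2.55, 0, 0 and 0 CPM in cluster 4. Every plate was lower in cluster 4. The sums behind these levels held 114 UMIs of 3101644 in cluster 3 and 1 UMI of 1529268 in cluster 4, a ratio of 56.2 per total UMIs (95% counting interval 9.89 to 2239). The interval pools the plates and leaves out the spread between plates and between cells. The gene was below the filter of the count test. The exact within-plate permutation test on log2(CPM + 1) gave the smallest p it allows (difference −4.65, two-sided p = 0.13, lower on 4 of 4 plates). Without the filter the log2 fold change was −5.60 (SE 2.13, edgeR adjusted p = 1.0). On JM5 and JM7 the levels were 100 and 40.8 CPM in cluster 3 and 2.07 and 0 CPM in cluster 4.

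*Igfbp2* was detected in 17 of 36 cells of cluster 3 (47.2%, 30.4 to 64.5%) and in 2 of 22 of cluster 4 (9.09%, 1.12 to 29.2%), with 1 UMI in each of those 2 cells, and in 0 of 25 cells of cluster 6. In cluster 3 a single cell on plate Q7 carried 432 of the 577 UMIs, and that cell is in none of the paired sums. *Igfbp2* and *Th* did not mark opposite cells within cluster 3, where 8 cells had both, 9 *Igfbp2* alone, 10 *Th* alone and 9 neither. Of 21 genes of the insulin-like growth factor system 10 had a UMI and 2 were tested, neither with an unadjusted p under 0.05. The receptor *Igf1r* stood at a mean of 58.7 CPM in cluster 3 and 52.9 CPM in cluster 4, and no UMI of *Igfbp4* or *Igfbp7* was found in the 58 cells.

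The hormone genes showed smaller differences. *Avp* (chr2:130580620-130582554, minus strand) stood at 71398, 30689, 38846 and 46425 CPM in cluster 3 and at 54131, 69251, 54706 and 52054 CPM in cluster 4, higher on 3 of 4 plates. The log2 fold change was 0.40 (SE 0.21, edgeR adjusted p = 0.998). *Pdyn* (chr2:129686565-129699844, minus strand), the precursor of dynorphin, stood at 581, 434, 442 and 830 CPM against 876, 1063, 873 and 513 CPM, with plate JM8 in the opposite order to the other 3. Its log2 fold change was 0.59 (SE 0.30, edgeR adjusted p = 0.998). On JM5 and JM7 *Pdyn* was at 533 and 682 CPM in cluster 3 and 967 and 1566 CPM in cluster 4, so it was higher in cluster 4 on 5 of 6 plates. *Pdyn* was detected in 36 of 36 and 21 of 22 cells, and its spread between cells was wider in cluster 4, from 0 to 2928 CPM against 163 to 1196 CPM.

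*Oxt* was carried by few cells. Its sums ran from 160 to 26356 CPM in cluster 3 and from 223 to 2098 CPM in cluster 4, and a cell of cluster 3 on AL6 with 62303 CPM of *Oxt* and 19210 CPM of *Avp* made the highest. A cell of cluster 4 on JM5 held 25367 CPM of *Oxt* and 10390 CPM of *Avp*. Above 1000 CPM of *Oxt* there was 1 cell in cluster 3 and 5 in cluster 4. The log2 fold change was 0.53 (SE 2.24, edgeR adjusted p = 0.998), and without the cell on AL6, an alternative chosen after seeing the data, it was 1.68.

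Galanin and the tachykinin precursor differed in opposite directions. *Gal* stood at 329, 147, 423 and 208 CPM in cluster 3 and at 978, 938, 2388 and 124 CPM in cluster 4, so 3 plates were higher and JM8 was lower. In cluster 4 the level on JM6 came mostly from a cell of 6240 CPM, the same cell that held the most *Th*. The log2 fold change was 1.62 (SE 0.48; edgeR unadjusted p = 0.00673, adjusted p = 0.998), and *Gal* was also higher on JM5 and JM7, at 658 and 1535 CPM against 108 and 136. With plate JM8 left out *Gal* and *Th* were the 2 genes past the threshold (edgeR adjusted p = 0.0196 for each). *Gal* was singled out after its values were seen, since plate JM8 keeps it outside the rule for named genes. *Tac1*, which encodes substance P and neurokinin A, stood at 682, 284, 1238 and 870 CPM in cluster 3 and at 202, 208, 542 and 281 CPM in cluster 4, lower on 4 of 4 plates. Its log2 fold change was −1.23 (SE 0.25, edgeR adjusted p = 0.658; DESeq2 adjusted p = 3.37e-04). The plates JM5 and JM7 split, with 239 CPM in cluster 3 against 789 in cluster 4 on JM5 and 1116 against 0 on JM7. *Tac1* was detected in 33 of 36 cells of cluster 3 (91.7%) and 10 of 22 of cluster 4 (45.5%).

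Of 37 neuropeptide genes 22 had a UMI in the sums and 6 were tested. At an unadjusted p under 0.05 *Gal* was higher and *Tac1* lower, where 1.51% of all tested genes were higher and 1.77% lower. Of the 6 genes 4 had positive log2 fold changes, and the median of the 6 was 0.46. In the opioid list, which also holds *Pdyn*, 3 of 8 genes were tested, all with positive log2 fold changes and none with an unadjusted p under 0.05. Among 22 genes of the secretory granule and of peptide processing all had UMIs and 20 were tested. *Pam*, which amidates peptides such as vasopressin, and *Resp18*, a granule protein, were higher at an unadjusted p under 0.05 (2 of 20, where 1.51% of all tested genes were), and none was lower. *Resp18* stood at a mean of 2906 CPM in cluster 3 and 3454 CPM in cluster 4, higher on 4 of 4 plates, whereas the granule protein *Chgb* stood at 525 and 379 CPM, lower on 4 of 4 plates. The list had 11 positive and 9 negative log2 fold changes with a median of 0.05, against −0.05 over all genes tested.

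**Figure D3:**
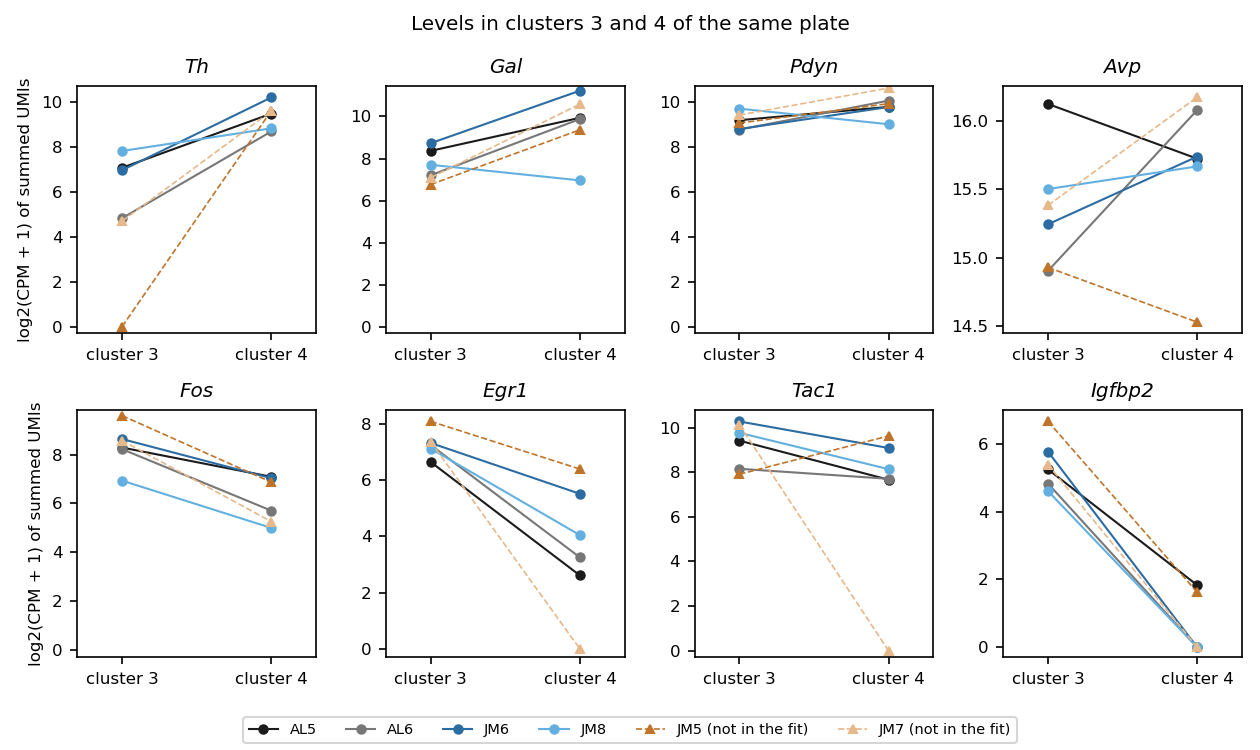
Log2 of CPM plus 1 of the summed UMIs in cluster 3 and cluster 4 for 8 genes, with a line for each plate. Solid lines are the 4 plates in the test, dashed lines JM5 and JM7, and the axis for *Avp* does not start at 0. *Th* is higher and *Fos*, *Egr1* and *Igfbp2* lower in cluster 4 on each of the 6 plates, and *Gal* and *Pdyn* are reversed on JM8.

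Immediate early genes, which neurons transcribe within minutes of stimulation and which include the transcription factors *Fos* and *Egr1*, were lower in cluster 4. Of 20 genes on the list 16 had a UMI and 10 were tested. *Fos*, *Fosb*, *Junb*, *Egr1* and *Dusp1*, 5 of the 10, were lower at an unadjusted p under 0.05 where 1.77% of all tested genes were, and none was higher. The filter kept a gene with enough counts in at least 4 of the 8 sums, so a gene high in 1 cluster alone could enter. *Fosb*, *Junb*, *Egr1* and *Dusp1* entered through cluster 3. Their number is thus no independent support for lower levels in cluster 4. Of the 10 tested genes 7 had negative log2 fold changes, with a median of −2.06. DESeq2 called 3 of them lower, *Fos*, *Egr1* and *Dusp1*, and edgeR called none over all genes. Summed over the list, the level was 1294, 1238, 1926 and 856 CPM in cluster 3 and 702, 608, 442 and 737 CPM in cluster 4 on AL5, AL6, JM6 and JM8. On JM5 and JM7 the sums were 2284 and 1861 CPM against 892 and 317. The list was lower in cluster 4 on each of the 6 plates.

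*Fos* (chr12:85473890-85477273, plus strand) stood at 312, 298, 397 and 121 CPM in cluster 3 and at 135, 51.2, 130 and 31.0 CPM in cluster 4. Each plate was lower in cluster 4, although plate JM8 of cluster 3 lay within the range of cluster 4. The log2 fold change was −1.76 (SE 0.35; edgeR unadjusted p = 4.82e-04, adjusted p = 0.658). With JM5 and JM7 added, where *Fos* was at 772 and 380 CPM in cluster 3 and at 116 and 37.3 CPM in cluster 4, it was −2.13 (SE 0.33, edgeR adjusted p = 0.0476). *Egr1* stood at 98.7, 150, 158 and 138 CPM in cluster 3 and 5.11, 8.53, 44.6 and 15.5 CPM in cluster 4, with no overlap (log2 fold change −3.17, SE 0.66, edgeR adjusted p = 0.672; DESeq2 adjusted p = 3.37e-04). *Dusp1*, a phosphatase that switches off MAP kinases, stood at 63.9, 65.0, 136 and 70.0 CPM in cluster 3 and at 17.9, 0, 0 and 0 CPM in cluster 4. Its sums held 236 and 7 UMIs, a ratio of 16.6 per total UMIs (95% counting interval 7.94 to 41.8). This interval too leaves out the spread between plates and between cells.

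Not every member of the list followed. *Jun* stood at a mean of 410 CPM in cluster 3 and 234 CPM in cluster 4 and was lower on 2 of 4 plates, *Fosl2* at 90.6 and 118 CPM, and *Ier2* at 6.21 and 26.4 CPM, higher on 3 plates and at 0 in both clusters on JM6. *Arc*, a gene of dendritic plasticity, was listed at 0 in cluster 4 on all 4 plates and at 3.42 to 23.3 CPM in cluster 3. It was below the filter of the test.

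The shares of cells with these transcripts also differed. *Fos* was detected in 33 of 36 cells of cluster 3 (91.7%, 77.5 to 98.2%) and 10 of 22 of cluster 4 (45.5%, 24.4 to 67.8%), *Egr1* in 31 of 36 (86.1%) and 7 of 22 (31.8%), and *Dusp1* in 33 of 36 (91.7%) and 4 of 22 (18.2%). In cluster 6 the shares were 80.0%, 44.0% and 56.0%. At 3 UMIs or more the counts for *Fos* were 32 of 36 and 10 of 22. Of 6 genes (*Fos*, *Fosb*, *Egr1*, *Junb*, *Dusp1* and *Btg2*, a set chosen after their values were seen) the median cell of cluster 3 had 5 and that of cluster 4 had 1. At least 4 of the 6 were detected in 31 of 36 cells of cluster 3 and in 3 of 22 of cluster 4. Over the other PVH clusters on AL and JM plates this share ran from 0% of 8 cells (cluster 9) to 90.5% of 21 (cluster 10).

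The upstream bases of *Fos* and *Dusp1*, both lower in cluster 4, are shown for comparison with *Th*. The windows are chr12:85473640-85473889 on the plus strand and chr17:26508473-26508722 on the minus strand, 250 bases each before the RefSeq start, with capitals as before. For *Dusp1*, as for *Th*, GENCODE also holds a transcript that starts further upstream and spans the window.
Fos: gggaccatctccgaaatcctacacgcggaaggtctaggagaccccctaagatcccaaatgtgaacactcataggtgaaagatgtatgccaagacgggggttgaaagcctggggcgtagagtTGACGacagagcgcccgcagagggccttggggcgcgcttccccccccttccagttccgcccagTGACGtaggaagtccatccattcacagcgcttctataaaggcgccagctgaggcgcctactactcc
Dusp1: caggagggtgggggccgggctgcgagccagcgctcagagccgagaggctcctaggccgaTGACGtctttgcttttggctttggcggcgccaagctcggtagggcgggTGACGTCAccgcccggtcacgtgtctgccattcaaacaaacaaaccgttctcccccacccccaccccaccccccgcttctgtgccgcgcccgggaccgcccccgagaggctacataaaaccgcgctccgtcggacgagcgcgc
*Fos* held TGACG at 129 and 66 bases before the start and no full palindrome. *Dusp1* held TGACG at 191 bases and the palindrome TGACGTCA at 143 bases before the start. The motif was thus present upstream of a gene that was higher in cluster 4 and of a gene that was lower. TGAGTCA or its reverse complement, the AP-1 motif, was in none of the 3 windows (4.46% of all windows). The CArG box, the serum response element's core, was in none of them either (1.47% of all windows). The windows shown were picked from a wider search. In it *Igfbp2*, *Pdyn*, *Avp*, *Gal* and *Mfge8* held neither TGACG nor its reverse complement. *Junb*, *Fosb* and *Tac1* held TGACG or its reverse complement without the palindrome, and a window of *Igfbp2* held the AP-1 motif. Bases further upstream were not searched, so these genes may hold the motifs there, and *Egr1* was not searched at all.

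The other genes that the rule named were higher in cluster 4 on 4 of 4 plates with the next smallest p-values. The largest log2 fold change among them was that of *Mfge8*, a secreted glycoprotein that binds phosphatidylserine on cells to be engulfed. It stood at 9.50, 0, 0 and 0 CPM in cluster 3 and at 66.4, 76.8, 70.6 and 25.2 CPM in cluster 4, and the 18 UMIs of cluster 3 came from a single cell. The log2 fold change was 5.28 (SE 1.51, edgeR adjusted p = 0.998; DESeq2 adjusted p = 0.00868). *Mfge8* passed the filter through cluster 4 alone, so these values are no independent support for a higher level there. It was detected in 1 of 36 cells of cluster 3 (2.78%) and 10 of 22 of cluster 4 (45.5%), in 9 of the 10 cells together with *Th*. In other clusters it was detected in 43 of 221 cells of cluster 1 (19.5%), an oxytocin cluster, and 4 of 53 of cluster 2 (7.55%). It was also found in 2 of 16 cells of cluster 13 (12.5%) and in 0 of 25 of cluster 6. On JM5 and JM7 it was at 0 in cluster 3 and at 35.2 and 142.9 CPM in cluster 4. *Smad1*, a transcription factor of bone morphogenetic protein signalling, stood at 55.4, 17.1, 16.4 and 56.0 CPM against 102, 108, 137 and 166 CPM, without overlap. Its log2 fold change was 2.01 (SE 0.59, edgeR adjusted p = 0.998; DESeq2 adjusted p = 0.0392).

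Further genes that the rule named as higher were *Lamtor1* (log2 fold change 1.54), which anchors the Ragulator complex to lysosomes, and *Npc2* (0.84), a lysosomal cholesterol carrier. It also named *Gcsh* (1.39), a subunit of the glycine cleavage system, *Lonrf2* (1.33), *Smim20* (2.19), *Arfgap2* (1.64) and *Rc3h2*. All had an edgeR adjusted p of 0.998. The DESeq2 adjusted p was 0.0101 for *Lamtor1* and *Lonrf2*, 0.0176 for *Gcsh*, 0.0334 for *Smim20* and *Rc3h2*, 0.0616 for *Arfgap2* and 0.0977 for *Npc2*. On JM5 and JM7, which had no part in naming them, *Npc2* was higher in cluster 4 on both, and *Gcsh*, *Smim20* and *Rc3h2* were lower in cluster 4 on both. *Gcsh* for example stood at 116 and 70.2 CPM in cluster 3 and at 80.7 and 12.4 CPM in cluster 4 there.

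The genes that the rule named as lower on 4 of 4 plates were, beside the early response and *Tac1*, led by *Nifk*, a nucleolar protein. It stood at 67.1, 205, 113 and 88.6 CPM in cluster 3 and at 7.66, 17.1, 11.1 and 7.74 CPM in cluster 4, without overlap (log2 fold change −3.33, SE 0.67, edgeR adjusted p = 0.658; DESeq2 adjusted p = 2.64e-04). On JM5 the order was reversed, with 0 CPM in cluster 3 and 47.6 CPM in cluster 4. *Plcxd3*, a phospholipase C domain gene, stood at 122, 92.3, 212 and 352 CPM against 5.11, 48.3, 0 and 1.93 CPM, and *C1ql2*, a secreted synaptic protein of the C1q family, at 321, 205, 327 and 434 CPM against 148, 171, 74.3 and 63.9 CPM. Both were lower on JM5 and JM7 too, *C1ql2* at 162 and 140 CPM against 51.8 and 0. The rest were *Vbp1* (log2 fold change −1.16), a prefoldin subunit, *Ndufa8* (−0.96) of respiratory complex I, *Arl1* (−1.14), a Golgi GTPase, *Rilpl1* (−3.65) and *Lin7c* (−3.64), a synaptic scaffold protein. Their edgeR adjusted p was 0.998. The DESeq2 adjusted p was 0.0101 for *Vbp1*, 0.0123 for *Rilpl1*, 0.0179 for *Lin7c* and 0.0334 for *Ndufa8* and *Arl1*. *Nifk*, *Plcxd3*, *Rilpl1* and *Lin7c* passed the filter through cluster 3. Their values are thus no independent support for lower levels in cluster 4.

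Mitochondrially encoded transcripts form a list added after the values were seen. Of 37 genes 16 had a UMI and 9 were tested, 8 of them with a positive log2 fold change and 3, *mt-Rnr1*, *mt-Rnr2* and *mt-Nd1*, higher at an unadjusted p under 0.05, where 1.51% of all tested genes were. *mt-Rnr2* stood at 3258, 3037, 3507 and 3167 CPM in cluster 3 and at 4373, 3836, 5864 and 5532 CPM in cluster 4, with no overlap (log2 fold change 0.62, SE 0.12, edgeR adjusted p = 0.658; DESeq2 adjusted p = 8.85e-04). On JM5 it was lower in cluster 4, at 8046 against 9153 CPM, and on JM7 the levels were 5463 CPM in cluster 3 and 5511 CPM in cluster 4. The mitochondrial share of each cell moved with the cluster as given above, and its part in the other differences was not tested. Of 85 ribosomal protein genes, also added, 80 were tested, with a median log2 fold change of 0.10 and none at an unadjusted p under 0.05.

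Lists for other properties of vasopressin neurons held few genes at an unadjusted p under 0.05. At that limit 1.51% of all tested genes were higher in cluster 4 and 1.77% were lower. Of 19 genes of endoplasmic reticulum stress 16 were tested, 12 with negative log2 fold changes (median −0.20), and the chaperone *Hspa5* alone had an unadjusted p under 0.05, at 1389 ± 58.4 CPM in cluster 3 and 1049 ± 142 CPM in cluster 4 (SD, n = 4 plates), lower on 4 of 4 plates. All 7 tested genes of the 10 in the heat shock list had positive log2 fold changes (median 0.28) with none at an unadjusted p under 0.05. Of 20 genes of the osmotic and angiotensin response 9 were tested and none had an unadjusted p under 0.05. *Creb3l1*, a transcription factor of the *Avp* gene, stood at 21.3 ± 16.5 and 51.4 ± 52.8 CPM. The lineage factor list had 10 of 22 genes tested and none at an unadjusted p under 0.05, with *Otp* at a mean of 627 and 768 CPM. Of 3 transmitter genes tested among 11 none had an unadjusted p under 0.05, and of 4 genes tested among 12 subtype markers *Calb1*, a calcium buffer of magnocellular neurons, was higher at that limit (log2 fold change 0.70, SE 0.30), with plate JM8 in the opposite order. Among 5 tested of 42 receptors none had an unadjusted p under 0.05. Among 15 tested of 33 sodium, calcium, HCN and TRP channel genes *Scn3b*, a sodium channel beta subunit, was lower at an unadjusted p under 0.05, at a mean of 433 and 276 CPM. Of the 12 genes the study used to name cell types 4 were tested and none had an unadjusted p under 0.05.

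Markers of other cells were low in both clusters. Summed over 10 astrocyte markers, of which 9 had a UMI, levels ran from 46.6 to 137 CPM in cluster 3 and from 29.0 to 119 CPM in cluster 4, and *Gfap* was at 0. For oligodendrocytes (4 of 10 markers with a UMI) the ranges were 39.6 to 95.8 and 38.3 to 92.8 CPM, and for microglia (3 of 10) 39.1 to 112 and 19.9 to 44.6 CPM. Markers of oligodendrocyte precursors were at 0, and those of endothelium, mural cells and fibroblasts reached at most 5.69 CPM. Markers of tanycytes and ependyma (2 of 6 with a UMI) reached 44.6 CPM, and those of suprachiasmatic neurons (3 of 9), the vasopressin cells of a neighbouring nucleus, 44.5 CPM in cluster 3 and 11.6 CPM in cluster 4. The 5 pan-neuronal markers were all tested and 1 of them, *Snap25*, was higher at an unadjusted p under 0.05, where 1.51% of all tested genes were. *Snap25* stood at 508 ± 88.3 CPM in cluster 3 and 734 ± 190 CPM in cluster 4.

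Set beside the other PVH clusters on the AL and JM plates, cluster 4 had the highest mean *Th* among the 9 measured there, at 703 ± 305 CPM (SD, n = 5 plates). Cluster 1, an oxytocin cluster, followed with 199 ± 107 CPM (n = 6 plates) and cluster 3 with 107 ± 83.2 CPM (n = 5 plates), and the difference between these 2 was within their spread. The remaining 6 clusters had means of at most 48.0 CPM. Clusters 8 and 9 had no such mean on these plates. Over all plates cluster 9 stood at 236 ± 347 CPM of *Th*, with 1 plate at 754 CPM, and cluster 8 at 162 ± 206 CPM (SD, n = 4 plates each). *Th* was detected in 199 of 221 cells of cluster 1 (90.0%, median 183836 UMIs a cell), a larger share than in cluster 4. For *Fos* cluster 10 was highest at 1010 ± 521 CPM (n = 3 plates), cluster 3 followed at 301 ± 109 CPM, next to cluster 7 at 262 ± 57.6 CPM, and cluster 4 stood at 92.7 ± 48.2 CPM, next to cluster 12 at 65.3 ± 20.7 CPM. Over all plates, with the Q plates included, clusters 10, 8, 2 and 7 had higher means of *Fos* than cluster 3. Cluster 2, the other vasopressin cluster, which has at least 3 cells on only 1 AL or JM plate and so is not in the plot, stood at 388 ± 255 CPM of *Fos* and 114 ± 169 CPM of *Th* (SD, n = 5 plates). Summed over the list of early genes the levels were 3987 ± 1616 CPM in cluster 10, 1435 ± 452 CPM in cluster 3, 676 ± 166 CPM in cluster 4 and 803 ± 256 CPM in cluster 1. Cluster 7 stood at 842 ± 222 CPM. Clusters 12, 13, 14 and 15 had lower means than cluster 4, at 410 ± 168, 498 ± 208, 636 ± 432 and 613 ± 339 CPM. *Igfbp2* had its highest mean in cluster 3, at 36.4 ± 11.9 CPM, and stood at 0.925 ± 1.28 CPM in cluster 4. Cluster 2 came next over all plates, at 22.8 ± 37.3 CPM (n = 5 plates), with 1 plate at 89.0 CPM, above each plate with at least 3 cells of cluster 3, and 8 of 53 cells with *Igfbp2* (15.1%). *Pdyn* was highest in cluster 4, at 858 ± 208 CPM, before cluster 3 at 594 ± 168 CPM, and their ranges over plates overlapped.

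**Figure D4:**
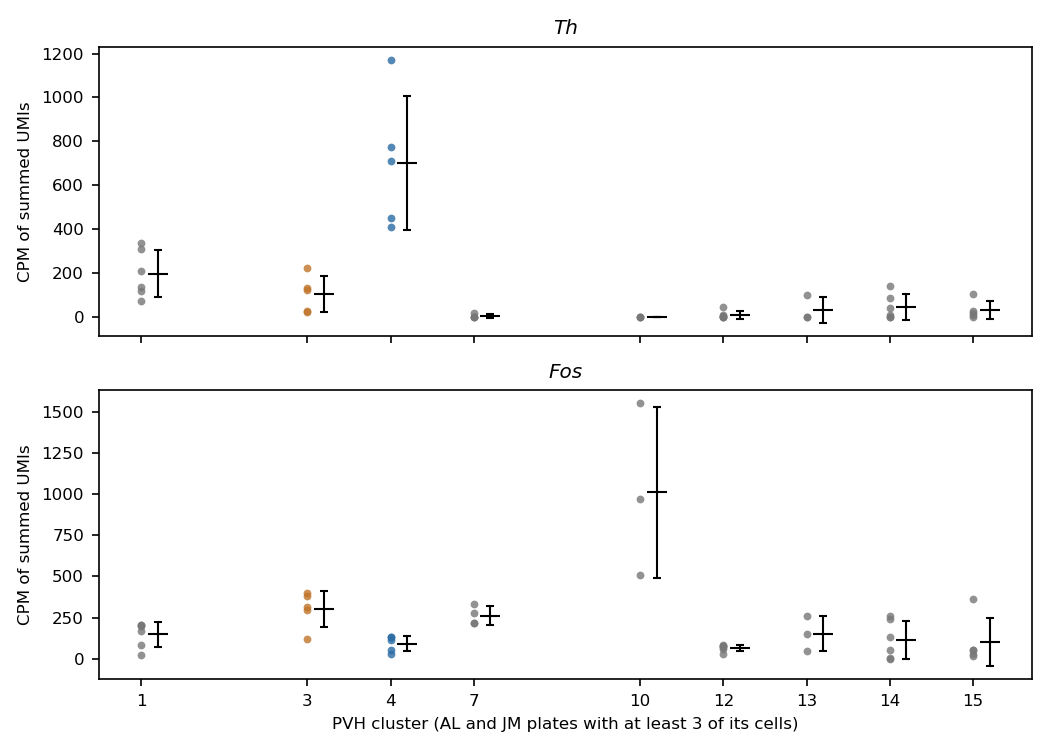
CPM of *Th* and *Fos* in the sums of each PVH cluster on AL and JM plates with at least 3 of its cells (points), with the mean and SD over plates (bars), and clusters 3 and 4 in orange and blue. Cluster 4 is highest for *Th* at 703 CPM on average, and cluster 3 lies above cluster 4 for *Fos* at 301 against 92.7 CPM.

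Genes chosen on some plates separated the cells of another plate in part. For each of the 4 plates, 20 genes in each direction were taken from a fit to the other 3, and each cell was scored by its mean log2(CPM + 1) over the higher genes minus that over the lower genes. The mean score of cluster 4 minus that of cluster 3 was 1.58 on AL5, 0.958 on AL6, 0.579 on JM6 and 1.97 on JM8 (mean 1.27, SD 0.620, n = 4 plates). With these 20 genes the groups overlapped on each plate, and 2 of 3, 1 of 5, 1 of 4 and 3 of 4 cells of cluster 4 scored above all cells of cluster 3. With 50 genes in each direction the difference on JM6 was 0.123 and the medians there were reversed (−0.113 in cluster 3 and −0.216 in cluster 4), whereas on AL6 all 5 cells of cluster 4 lay above those of cluster 3. On JM5 and JM7, scored with genes from all 4 plates, the difference was 1.42, with medians of −0.823 over 8 cells of cluster 3 and 1.43 over 6 cells of cluster 4, and 1 of the 6 lay above all of cluster 3. Since the authors drew the clusters on these cells too, the scores describe how the difference carries between plates and are no independent test of the clusters.

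**Figure D5:**
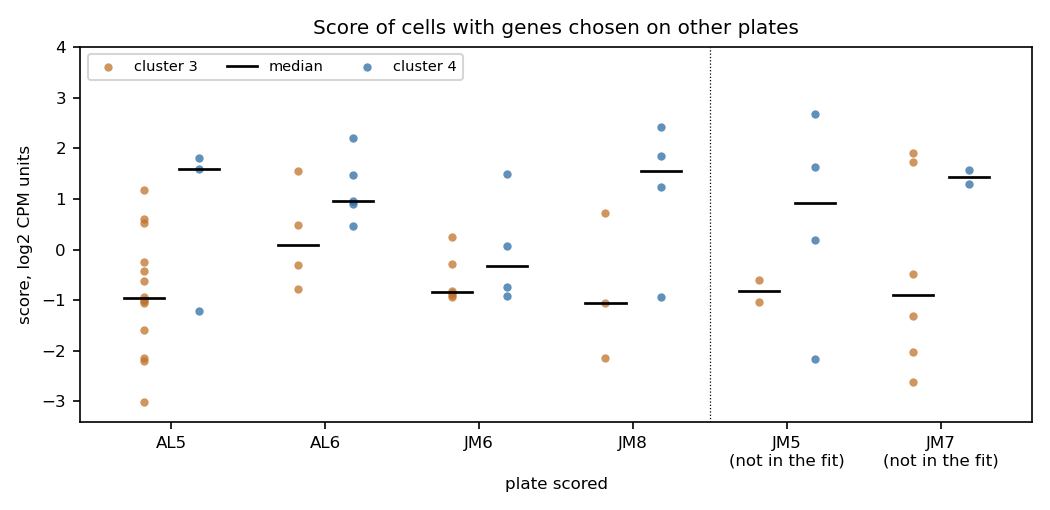
Score of each cell, in log2 CPM units, with 20 genes in each direction chosen on other plates, for clusters 3 and 4 on each plate, with bars at the median. Medians are higher in cluster 4 on each plate, and cells of the clusters overlap on AL5, AL6, JM6 and JM8.

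Within cluster 4 the cells were not uniform, which is given as a description over 22 cells that share plates and depth. *Th* was ranked with *Mfge8* (Spearman 0.64), *Pdyn* (0.56), *Avp* (0.55) and *Gal* (0.48), and against *Tac1* (−0.59). Over the 36 cells of cluster 3 the rank correlation of *Th* was 0.52 with *Avp*, −0.46 with *Tac1*, 0.05 with *Gal* and −0.03 with *Pdyn*. The total UMIs of the cell ranked with *Th* by 0.43 in cluster 4 and 0.42 in cluster 3. In cluster 4, 7 cells had both *Th* and *Tac1*, 11 *Th* alone, 3 *Tac1* alone and 1 neither, and in cluster 3 the counts were 16, 2, 17 and 1.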

How the data were processed

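Single cells were measured on 10 plates, and the authors deposited raw UMI counts per gene and well, ERCC spike-in counts and a table of cells kept after quality control with cluster numbers. The submitters' processing notes name Trimmomatic 0.36, STAR 2.5.3a and the build GRCm38.p5. Doublets are not mentioned in the sources used here and none were removed. Counts were summed per plate and cluster and tested with edgeR 4.0.16 under R 4.3.3 (TMM, filterByExpr, robust quasi-likelihood test, plate as a block). DESeq2 1.42.0 and limma 3.58.1 were alternatives, and both count tests were tested on simulated data. Levels (CPM) are counts scaled by the total gene UMIs. The exact permutation test swapped clusters within plates (16 arrangements). Gene positions were read from the GENCODE annotation of GRCm38 and upstream sequences from RefSeq. Python 3.11.15 was used otherwise. The rule for named genes took *Avp*, *Oxt*, *Pdyn*, *Th* and *Igfbp2*, then the 12 genes in each direction that were past the threshold or, since none were, had the smallest p with 1 direction on 4 of 4 plates, list members past the threshold and 7 identity genes. Others were named after their values were seen. Members and lists were chosen with earlier results of these data known. The alternatives covered the tool, normalization, filter, block, plates, clusters, cell weights and depth, the UMIs that count as detection, and the size of the score. One list result is not reported here.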

Additional observations from a re-analysis of the deposited data

Results flagged for a closer look

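Groups of 4 plates were screened for a plate that stood apart by Dixon's ratio, which chance gives in about 1 in 20 groups, and 9 of 76 groups did. In cluster 4 these were *Avp* on AL6 (69251 CPM), *Plcxd3* on AL6 (48.3 CPM), *Rilpl1* on AL6 (14.2 CPM), *Igfbp2* on AL5 (2.55 CPM), *Dusp1* on AL5 (17.9 CPM) and the median mitochondrial share on JM6 (3.33%). In cluster 3 they were *Oxt* on AL6 (26356 CPM), *Mfge8* on AL5 (9.50 CPM) and *Dusp1* on JM6 (136 CPM). *Igfbp2* and *Dusp1* in cluster 4 and *Mfge8* in cluster 3 were at 0 on the other 3 plates.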

How the results depend on the processing

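The 0 genes past the threshold became 29 with DESeq2 (5 of them on the gene lists, the lists added later not counted), 10 without the filter on low counts (*Avp*, *Egr1*, *Fos*, *Gal*, *Mir6236*, *Plcxd3*, *Tac1*, *Th*, *Vbp1* and *mt-Rnr2*, 6 on the lists), 2 with all 6 plates (*Fos* and *Th*, both on the lists) and 1 on the JM plates alone (*Plcxd3*). Leaving out 1 plate gave 0 to 2 genes and 0 to 2 list members, the 2 without JM8. The other alternatives gave 0. The plate is the pairing, and without this replicate block 0 genes passed. *Th* kept its direction in 16 of 16 alternatives, between 2.15 and 3.36 (adjusted p from 2.65e-13 to 1.0), and passed in 4. Of 33 named genes tested 30 kept their direction throughout. *Oxt* was reversed without the plate term (−2.55), without AL5 (−0.41) or JM6 (−0.86), with all PVH clusters (−0.23), on the AL plates alone (−1.83) and with limma (−0.0375), and ranged from −0.86 to 1.78 over plates left out. *Sim1* was reversed without AL6 (0.12), on the JM plates alone (0.40) and with thinned cells (0.0521), with −0.61 to 0.12 over plates left out, and *Slc17a6* without JM8 (0.31) and on the AL plates alone (0.13), with −0.66 to 0.31 over plates left out. The difference in ERCC share was 0.248 percentage points with means in place of medians. At least 3 UMIs for detection left *Igfbp2* in 14 of 36 and 0 of 22 cells. The score difference was 0.869 with 50 genes in each direction, and the medians on JM6 were then reversed. The causes were not tested. Leaving out the *Oxt* cell and scoring JM5 and JM7 were chosen after seeing the data. With 3 to 14 cells a sum, low genes such as *Igfbp2* fell below the filter of the count test.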
